A study of Homo sapiens with 12 samples.

Results

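The regions described here had an ATAC-seq peak in both libraries of U2OS cells with full-length FOXA2 and no overlapping peak in any of the other 7 deposited peak lists. ATAC-seq cuts open chromatin with a transposase, so that a peak marks a stretch where DNA was accessible. The peaks of all 9 lists on chromosomes 1–22 and X were merged wherever they overlapped by at least 1 bp, which gave 399183 regions. Of these, 3127 met the rule, which is 0.783% of all merged regions and 7.02% of the 44572 regions with a peak in both full-length lists. They are called full-length-only regions. The presence and absence of peaks chose them, so that their number and their strength in the full-length lists are a description and carry no test.

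FOXA2 is a transcription factor of the endoderm and of organs derived from it, such as liver, pancreas and lung. It binds DNA through a forkhead or winged-helix domain, and it is a textbook pioneer factor, able to bind sites in closed, nucleosomal chromatin. The part of FOXA proteins that follows the DNA-binding domain, the C-terminal domain (CTD), is known for contacts with core histones and for opening of compacted nucleosome arrays in vitro.

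The cells were U2OS, a human osteosarcoma line. The FOXA2 and SOX2 constructs were of the Tet-on kind, which doxycycline switches on. Samples with full-length FOXA2, with FOXA2 lacking its CTD (CTD deletion), with SOX2 and with a SOX2-FOXA2 CTD fusion were treated with doxycycline at 500 ng/ml for 4 days. There were 2 wild-type groups, one in the FOXA2 set and one in the SOX2 set, whose fields for treatment and genotype are blank although their protocol text names doxycycline. Each of the 6 groups had 2 samples. The FOXA2 set had 1 peak list per sample. The SOX2 set had 1 list per group in the layout of the IDR procedure, which pairs replicate lists. The labels do not say whether a line was 1 clone or a pool, nor whether replicates were separate cultures.

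The lists were not alike. In the FOXA2 set, 19862 and 25088 peaks were listed for the wild type (replicates 1 and 2), 161136 and 57946 for full-length replicates 1 and 2, and 78820 and 146854 for CTD deletion replicates 1 and 2. The SOX2-set lists held 110813 entries (wild type), 147763 (SOX2) and 177650 (fusion). The lowest −log10 p was 2.01 in full-length replicate 1 and in both CTD deletion lists, 3.44 in wild type replicate 1, 5.22 in full-length replicate 2 and 5.43 in wild type replicate 2. The last 2 lists also had no mitochondrial peak, while the remaining 4 of that set had 2 each. Peak names in full-length replicate 2 and wild type replicate 2 began with 12_hg38_atac.xie.p1e5 and 10_hg38_atac.xie.p1e5, in that order. Those in full-length replicate 1 began with FL4-1p, so the 2 full-length lists were named in different ways. Both lists labelled wild type of the FOXA2 set had a peak at the FOXA2 gene, in 20:22581715-22583295, with fold enrichments of 5.19 and 14.7, against 5.76 and 44.3 with full length and 6.94 and 7.07 with the CTD deletion. This region had no peak in the lists of the SOX2-set wild type or SOX2, so the lists labelled wild type of the FOXA2 set stand apart from the other wild type there. The fusion list had a peak there too, and the 3 SOX2-set lists and full-length replicate 2 had one elsewhere in the gene, in 20:22583822-22585299. Fold enrichments of different lists are on different backgrounds and are given side by side only. Peak names in the list of wild type replicate 1 began with dc0, and those in the CTD deletion lists with dc4-1p and dc4-2p. Whether the cells labelled wild type in the FOXA2 set carried a construct without induction is not stated in the sources used here. If they did, regions already open with it are removed by the rule. Without them the rule gave 3286 regions (0.826% of those merged), which include all 3127 by construction. Of 20 osteoblast genes, 4 to 15 per list had a peak within 1 kb of a gene end. SMAD6, SPARC and TNFRSF11B did in all 9, and TWIST1, DLX5, PHEX and POSTN in none. Of 15 blood genes, 1 to 7 per list did, and CD8A and SPI1 did in every list except that of wild type replicate 1.

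Full-length-only regions seldom lay at a promoter. Of the 34961 RefSeq promoter windows of 300 bp (250 bp before a gene start and 50 bp after it), 6 overlapped such a region, which left 0.192% of the 3127 regions (95% Wilson interval 0.0880–0.418%) at one. The same share was 0.328% for the 6105 regions with a peak in both full-length and both CTD deletion lists and in no other list, which are called shared regions (1.53% of all merged regions). It was 0.432% for the 1851 regions with a peak in both CTD deletion lists and no other (0.464% of all), called CTD-deletion-only, and 3.50% for all merged regions. It was 50.6% for the 8417 regions with a peak in all 9 lists (2.11% of all). The median GC content was 34.7% in the 6 windows, 38.2% in those of shared regions and 37% in those of CTD-deletion-only regions, against 64.7% in the windows of regions open in all 9 lists and 58.7% in all windows. The bases of these windows that lie before the gene start and inside the full-length-only region are shown for the 3 genes with the most such bases, since they are the opened sequence at hand. They are 5′ to 3′ on the gene's strand, from RefSeq on GRCh38.p14, and capitals mark a forkhead word.
PRKACB: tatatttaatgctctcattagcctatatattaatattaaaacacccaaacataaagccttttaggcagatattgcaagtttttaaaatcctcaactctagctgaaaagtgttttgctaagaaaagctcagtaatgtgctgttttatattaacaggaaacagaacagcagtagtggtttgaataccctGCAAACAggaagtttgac
CASC17: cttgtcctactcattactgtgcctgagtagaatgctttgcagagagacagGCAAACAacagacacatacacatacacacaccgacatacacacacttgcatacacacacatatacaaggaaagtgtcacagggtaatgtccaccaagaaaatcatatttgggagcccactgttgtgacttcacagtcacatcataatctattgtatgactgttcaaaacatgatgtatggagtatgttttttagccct
KRTAP20-4: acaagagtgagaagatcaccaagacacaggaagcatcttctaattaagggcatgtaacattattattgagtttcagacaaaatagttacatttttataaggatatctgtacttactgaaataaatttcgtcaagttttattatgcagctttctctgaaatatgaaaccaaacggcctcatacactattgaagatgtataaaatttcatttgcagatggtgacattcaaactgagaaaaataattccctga

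PRKACB encodes a catalytic subunit of protein kinase A, and its 205 bases are chr1:84144066-84144270 on the plus strand. CASC17 is a long noncoding RNA gene, and its 248 bases are chr17:71202180-71202427 on the minus strand. KRTAP20-4 encodes a keratin-associated protein of hair, and its 250 bases are chr21:30620377-30620626 on the plus strand. The start used for PRKACB lies inside the gene, and its member was 65987 bp from the nearest protein-coding gene end. The starts used for CASC17 and KRTAP20-4 are the outer ends of their genes. The forkhead words searched, on both strands, were TGTTTAC and TGTTTGC, as well as TATTTAC and TATTTGC. At PRKACB the capitals GCAAACA are TGTTTGC read on the opposite strand, with the first base at −18 from the start. CASC17 had the same word at −198, and KRTAP20-4 had none. Forkhead words were in 2 of the 6 windows (33.3%, interval 9.68–70.0%), and the same words spelled backwards were also in 2 of the 6. Of all promoter windows, 12.1% held a forkhead word and 9.18% a backward spelling. With 6 windows no difference from these shares was detectable. A match is a run of letters and not a site shown to be bound.

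The peaks in full-length-only regions were of middling strength. Their fold enrichment over the background of the library, a ratio made by the authors, had a median of 3.87 in full-length replicate 1 (range 2.20–10.2) and of 5.80 in replicate 2 (range 3.75–28.6). All peaks of these lists had medians of 3.31 and 6.48, and the shared regions 4.76 and 7.50. The median percentile of −log10 p within the list was 69.4 in replicate 1 and 33.1 in replicate 2, against 86.6 and 63.5 for shared regions. Of the 3127 regions, 2581 (82.5%) ranked higher in replicate 1 than in replicate 2. Replicate 1 had the longer list and the lower threshold. In replicate 1, 33.1% were in the top class of 20 percentiles and 3.77% in the bottom one, while in replicate 2 3.39% were in the top and 30.0% in the bottom. The replicates ordered these regions only loosely. Across the regions, the Spearman correlation of both fold enrichments was 0.148, against 0.415 across shared regions and 0.427 across regions open in all 9 lists. Regions are not replicates, and the rule narrows the range of strength.

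**Figure D1:**
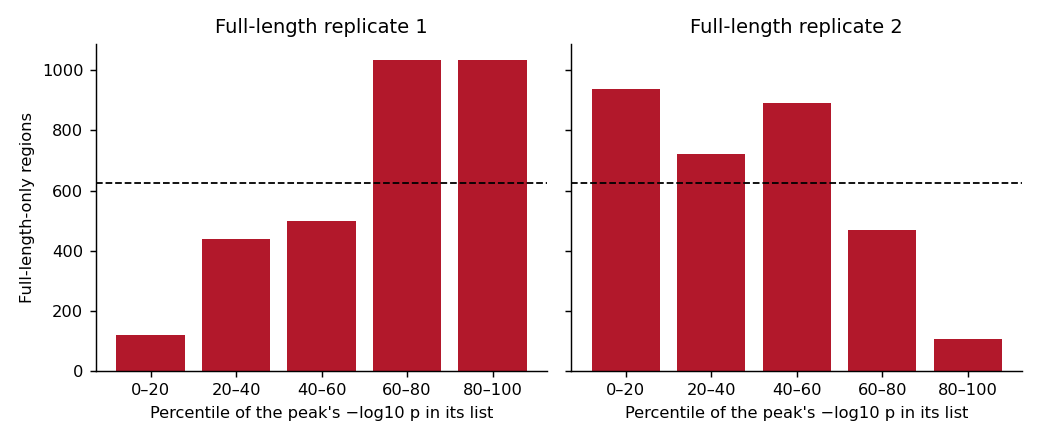
Number of full-length-only regions (vertical axis) by class of 20 percentiles of the −log10 p of their peak within its own list (horizontal axis), in full-length replicate 1 (left) and replicate 2 (right). The dashed line is an even spread over the 5 classes. In replicate 1, 1036 of the 3127 regions are in the top class, and in replicate 2 106 are.

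Merging requires that the peaks of both replicates meet in a member, so that their closeness follows in part from the rule. The middles of both peaks lay a median of 91.5 bp apart, and in 79.7% of the regions they overlapped by at least 50% of the shorter peak, against 88.9% of shared regions. The summits lay 136 bp apart at the median, and 16.2% were within 50 bp. In shared regions they were 145 bp apart, with 13.6% within 50 bp, and the summits of both CTD deletion replicates in CTD-deletion-only regions were 112 bp apart, with 26.6% within 50 bp. In regions open in all 9 lists, the summits of wild type replicate 2 and full-length replicate 2, both from lists without mitochondrial peaks, were 66 bp apart at the median. Those of full-length replicates 1 and 2, whose lists differ in that respect, were 152 bp apart there, and those of wild type replicates 1 and 2 149 bp. Pairs of lists with mitochondrial peaks lay between. The distance was 131 bp for wild type replicate 1 and full-length replicate 1, and 100 bp for both CTD deletion replicates. Full-length-only regions were 501 bp wide at the median, shared regions 728 bp and regions open in all 9 lists 1331 bp.

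Ranked by the lower of the 2 percentiles, the strongest member lay at 6:60933249-60934106, 608564 bp from KHDRBS2, which encodes an RNA-binding protein. Its fold enrichment was 10.2 in full-length replicate 1 and 28.6 in replicate 2, the highest of all members in both lists. It also lay 214 bp from a peak of another list and 392 bp from a CTD deletion peak. The second, at 3:131978078-131978629 inside CPNE4, a gene of the copine family of calcium-dependent membrane-binding proteins, had values of 7.62 and 23.5. Its nearest CTD deletion peak was 19808 bp away. The third, at X:53073807-53074701 in the orphan receptor gene GPR173, had values of 5.44 and 16.7, with a CTD deletion peak 430 bp away. These 3 differ most in how isolated they were, since the first and the third had a neighbouring peak within 500 bp and the second had none.

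Of the 15 highest-ranked members, 7 lay in a protein-coding gene, a share near the 47.0% of all members and the 42.8% of all regions: those in CPNE4, GPR173, PKIA, CNTNAP3B, CD55, LAMA2 and CSMD3. PKIA encodes an inhibitor of protein kinase A, and its member at 8:78523734-78524407 had values of 5.40 and 12.6. CD55 encodes an inhibitor of complement on the cell surface, and its member at 1:207322787-207323387 had values of 6.56 and 12.3. LAMA2, for a laminin chain of muscle basement membrane, held a member at 6:129145622-129146122 with values of 6.91 and 11.6. Its nearest CTD deletion peak was 12242 bp away. The member in CSMD3, at 8:112694093-112694774, had values of 5.60 and 10.9 and lay 13011 bp from such a peak. The member in CNTNAP3B, at 9:41934698-41935322, had values of 5.10 and 12.6 and lay 148 bp from another member. CNTNAP3B and GOLGA8S belong to families of near-identical copies, among which reads cannot always be placed, so values there are uncertain. No region was left out for uncertain placement of reads. That placement was not checked at the other members, the strongest one included.

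The other 8 lay outside protein-coding genes. Nearest to them, after KHDRBS2, were GOLGA8S (7030 bp), ITGA4 (168038 bp), CHST12 (1271 bp), LSAMP (822121 bp), BRD1 (245438 bp), LOC124901415 (1811 bp) and PELI2 (170259 bp). ITGA4 encodes an integrin chain of leukocytes, CHST12 a sulfotransferase of chondroitin, LSAMP a neuronal adhesion protein, BRD1 a scaffold of a histone acetyltransferase complex and PELI2 a ubiquitin ligase of innate immune signalling. The member near PELI2, at 14:55947338-55948152, had fold enrichments of 7.35 and 10.6, and that near ITGA4, at 2:181288532-181289167, had 5.91 and 12.6. Over the 15, fold enrichment ran from 4.35 to 10.2 in replicate 1 and from 10.6 to 28.6 in replicate 2. The gap to the nearest CTD deletion peak had a median of 2508 bp, with none below 392 bp. The summits of both full-length replicates were at most 197 bp apart in all 15.

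Among regions with full-length FOXA2 peaks and no control peak, the share of full-length-only ones was highest where the weaker of both peaks ranked low. There were 13809 regions with a peak in both full-length lists and in no wild-type or SOX2-set list. Of these, 22.6% (interval 22–23.4%) were full-length-only, 33.1% had a peak in 1 CTD deletion list and 44.2% in both. The split moved with peak strength. Where the lower of the 2 full-length percentiles was 0 to 20, 38.5% of 2623 regions were full-length-only. The share fell through 30.1%, 22.3% and 13.2% in the following classes to 3.43% of 1778 (interval 2.68–4.38%) at 80 to 100. The share with a peak in both CTD deletion lists rose from 23.8% to 81.9% over the same classes. The percentiles come from the lists that chose the regions, so that this is a description. The low ranks were mostly those of replicate 2: of the 1010 members in the lowest class, 913 ranked higher in replicate 1, and 255 were in its top class. In the strongest class, 61 regions were full-length-only.

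**Figure D2:**
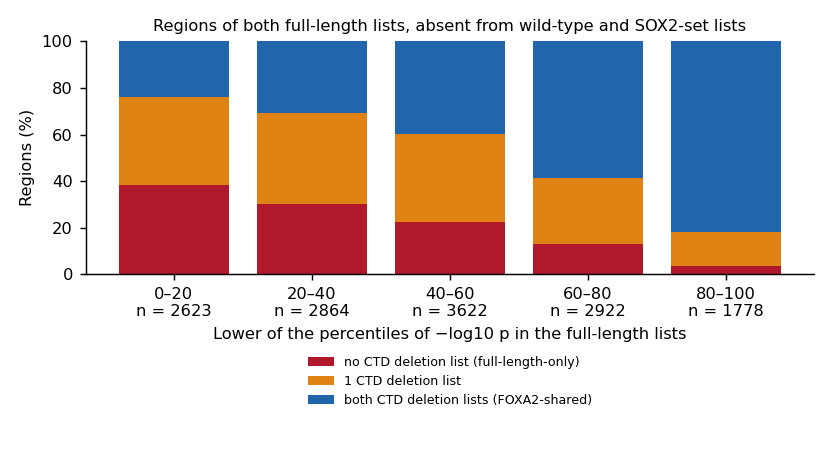
Percent of the 13809 regions with a peak in both full-length lists and in no wild-type or SOX2-set list (vertical axis) that had a peak in 0, 1 or both CTD deletion lists, by class of the lower of the 2 full-length percentiles of −log10 p (horizontal axis). The full-length-only share goes from 38.5% in the weakest class to 3.43% in the strongest.

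Many regions missed the rule by 1 peak of ordinary strength for its list. There were 4930 regions with both full-length peaks and a peak in exactly 1 other list, and that list was CTD deletion replicate 2 for 3636 (73.8%) and CTD deletion replicate 1 for 941 (19.1%). The −log10 p of these excluding peaks had a median of 4.36 in CTD deletion replicate 2 (range 2.01–20.5) and of 4.74 in replicate 1 (range 2.03–18.3). All peaks of these lists had medians of 4.01 and 4.84, in the same order. Just outside the rule were also 150 regions with a peak only in wild type replicate 2, 121 with one only in the fusion list, 43 in SOX2, 38 in the SOX2-set wild type and 1 in wild type replicate 1. Just inside it were 469 members (15%) with a peak of another list within 500 bp. For 241 of them (7.71% of members) it was a CTD deletion peak. The median gap from a member to the nearest CTD deletion peak was 5008 bp.

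Full-length-only regions lay mostly away from gene starts. Of the 2919 members on chromosomes with listed starts, 27 (0.925%, interval 0.636–1.34%) were within 1 kb of the start of a protein-coding gene, against 0.610% of shared regions and 3.82% of all regions. Of CTD-deletion-only regions, 0.861% were that close. In regions open in all 9 lists the share was 49.7%. Within 5 kb of a start were 173 members (5.93%, interval 5.13–6.84%), against 3.09% of shared regions (interval 2.67–3.57%), 3.56% of CTD-deletion-only regions (interval 2.79–4.54%) and 7.29% of all regions. The interval of the members at 5 kb lies above those of both other FOXA2 classes. It covers counting error only, since regions are not replicate cultures. This share also moved with the list: it was 15.9% for regions of full-length replicate 2 alone and 8.52% for wild type replicate 2 alone, the lists without mitochondrial peaks. It was 3.32% for full-length replicate 1 alone, 5.74% and 3.65% for CTD deletion replicates 1 and 2 alone, and 6.90% for wild type replicate 1 alone. The part of this in the members' share was not tested.

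The members near a start were at genes of mixed roles. The one at HSD17B13, which encodes a lipid-droplet dehydrogenase of liver, was 465 bp from the start with fold enrichments of 6.19 and 6.82. The one at TASOR, a subunit of the HUSH silencing complex, had 6.08 and 8.52. It was 21 bp from a listed start inside the gene, not from the gene's outer end. A member at SLC38A9, for a lysosomal amino acid transporter, was 196 bp from the start with 5.24 and 5.80. COL19A1, for a collagen chain, had one 563 bp from the start with 5.66 and 5.11. PRKACB had one that covered a listed start inside the gene, with 3.37 and 4.77. These 5 were picked from the 27 after their values were seen.

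Among regions with both full-length peaks and no CTD deletion or FOXA2-set wild-type peak, most at gene starts had a SOX2-set entry. There were 1257 regions with both full-length peaks, no CTD deletion or FOXA2-set wild-type peak and at least 1 entry in a SOX2-set list. Of those with starts to measure, 12.5% (149 of 1193, interval 10.7–14.5%) were within 1 kb of a start, against 0.925% of the members. Of these 1257 regions, 876 had an entry in the SOX2-set wild type and 775 in all 3 lists. The low share of gene starts among members therefore rests in part on this filter, and without the SOX2-set lists 4546 regions met the rule (1.65%), with 5.68% of them within 1 kb of a start.

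By gene body, 1471 members (47.0%, interval 45.3–48.8%) had their middle in a protein-coding gene, 375 (12%) only in a long noncoding RNA gene and 1281 (41.0%) in neither. The protein-coding share was 45.6% in shared regions, 42.2% in CTD-deletion-only regions (interval 40.0–44.5%) and 42.8% in all regions. A distance of over 50 kb to any protein-coding gene end was found for 56.3% of members, 58.1% of shared regions and 52.6% of all regions. The median distance to the next member was 231649 bp, and 82 (2.62%) had another member within 10 kb. For all regions the median distance to a member was 332804 bp, and 2.31% had one within 10 kb. Shared regions lay within 10 kb of 157 members (5.02%) and of 3.96% of all regions.

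Members lay close to constitutively open chromatin more often than the other FOXA2 classes. A region open in all 9 lists was within 10 kb of 263 members (8.41%, interval 7.49–9.44%), of 4.28% of shared regions (interval 3.8–4.81%), of 4.43% of CTD-deletion-only regions (interval 3.58–5.47%) and of 5.34% of all regions. Among members with no peak of another list within 500 bp, the share was 8.05% (214 of 2658). By class of strength the share was 7.23%, 8.47%, 9.03%, 8.03% and 21.3% in all members, from weakest to strongest, and 3.55% to 4.89% in shared regions. The 21.3% is a share of only 61 members, while the other classes held 386 to 1010. The same share moved with the list. Of regions with a peak in full-length replicate 2 alone, 25.7% were within 10 kb of a region open in all 9 lists, and of those in wild type replicate 2 alone 29.8%. These are the lists without mitochondrial peaks. The other lists of the FOXA2 set gave 3.61% for full-length replicate 1 alone, 6.32% and 3.77% for CTD deletion replicates 1 and 2 alone, and 3.74% for wild type replicate 1 alone. The part of this difference between lists in the members' share was not tested.

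**Figure D3:**
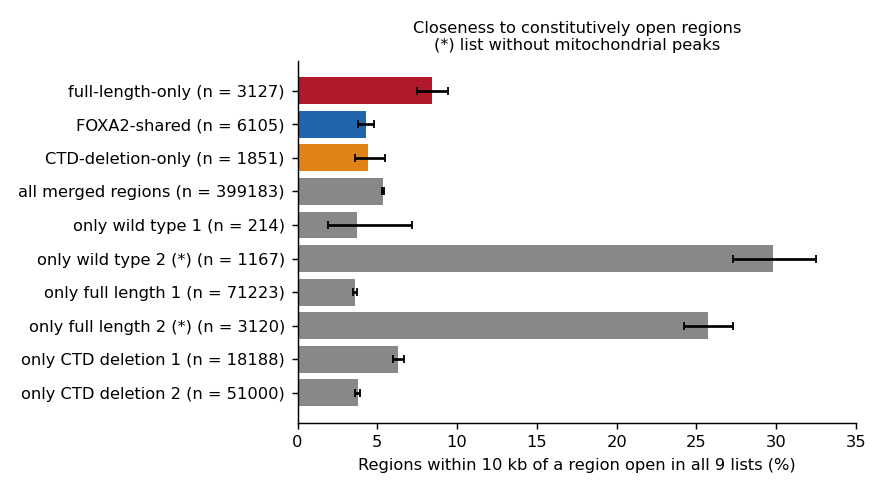
Percent of regions within 10 kb of a region open in all 9 lists (horizontal axis), with 95% Wilson intervals, for the FOXA2 classes, all regions, and regions with a peak in only 1 list of the FOXA2 set (vertical axis; an asterisk marks the lists without mitochondrial peaks). Members are at 8.41%, while regions of full-length replicate 2 alone are at 25.7% and of full-length replicate 1 alone at 3.61%.

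Seen from the constitutive regions, the rate of members was highest next to them. Up to 2 kb away, 74 of 3251 regions (2.28%, interval 1.82–2.85%) were members, against 0.831% that were shared and 0.215% that were CTD-deletion-only. From 2 to 10 kb the member rate was 1.09%, and it lay between 0.715% and 0.795% in the 3 classes beyond 10 kb. The rate of shared regions ran the other way, from 0.831% up to 2 kb to 1.62% beyond 200 kb.

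**Figure D4:**
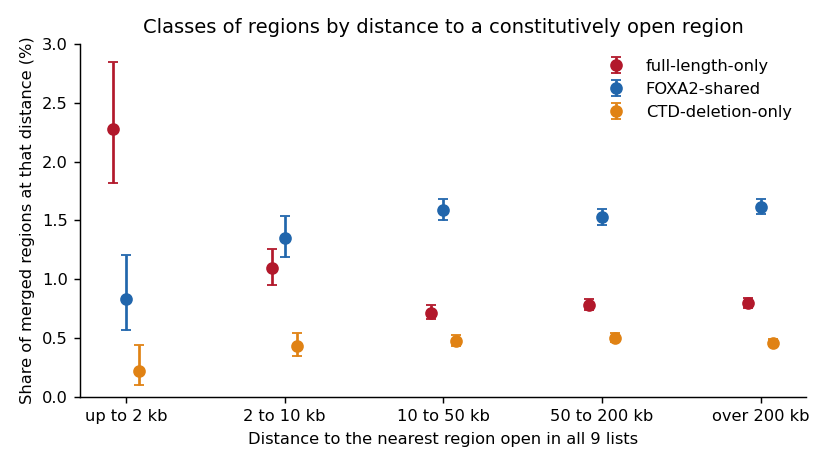
Percent of merged regions that were members, shared or CTD-deletion-only (vertical axis), by distance to the nearest region open in all 9 lists (horizontal axis, in classes), with 95% Wilson intervals. Members go from 2.28% up to 2 kb to 0.795% beyond 200 kb, and shared regions from 0.831% to 1.62%.

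By chromosome, members made up 0.303% of regions on chromosome 19 (19 of 6280) and 1.01% on chromosome 21 (50 of 4936, interval 0.769–1.33%), with a median over chromosomes of 0.782%. The balance of members to shared regions also varied. Members were 33.9% of members and shared regions together (interval 32.9–34.8%). They were 45.4% on chromosome 15 (114 members, interval 39.4–51.6%), 44.8% on chromosome 20 (78 members, interval 37.6–52.2%) and 22% on chromosome X (44 members, interval 16.8–28.2%). These 3 chromosomes were picked as the extremes of 23 after their values were seen. The densest window of 1 Mb was 5:19000001-20000000, with 9 members among 161 regions, at CDH18, a neuronal cadherin gene. Next were 7:80000001-81000000, with 8 among 160 at GNAI1, GNAT3 and SEMA3C, and 1:190000001-191000000, with 7 among 136 at BRINP3. The window at BRINP3 was 1 of 8 tied at 7 members. Shared regions in the 3 named windows numbered 4, 8 and 2.

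A protein-coding gene held a member in 1164 of 19974 cases (5.83%), and 934 of these held 1. The most members were in long genes. EYS, for a photoreceptor protein, held 8 in 1987 kb, beside 8 shared regions, and PCDH15, for a protocadherin of inner-ear hair cells, held 7 in 1825 kb beside 7 shared ones. MACROD2 held 6 beside 2 shared ones, and SGCZ, a sarcoglycan gene, held 6 beside 4. CDH18 held 5, as did CTNNA3, DLGAP1, DST and PRKG1. Long genes hold more regions of every kind. Members were 2.39% of the 335 regions in EYS, 2.17% of the 322 in PCDH15, 2.32% of the 259 in MACROD2, 4.65% of the 129 in SGCZ and 2.72% of the 184 in CDH18. These genes were picked for holding the most members, so that high rates in them follow in part from the ranking. In all genes over 1 Mb the rate was 1.03% (127 of 12297), against 0.537% in genes up to 50 kb and 0.726% outside genes. Shared regions had rates of 2.17%, 1.03% and 1.46% in the same classes.

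Genes that FOXA2 is known to serve in liver and endoderm were not marked out. A member lay in or within 50 kb of 2571 of 19974 protein-coding genes (12.9%), against 21.8% for shared and 8.12% for CTD-deletion-only regions. Of 30 hepatic genes, 4 had one, as did 4 for shared and 4 for CTD-deletion-only regions. Among them were AHSG, for the plasma protein fetuin-A (18733 bp away, fold enrichments 3.77 and 5.80), G6PC1, for the glucose-6-phosphatase of gluconeogenesis (4368 bp, 3.31 and 6.82), and CPS1, for the entry enzyme of the urea cycle (32010 bp, 3.31 and 6.14). None of these 3 members lay inside its gene. Of 24 endoderm genes, the FOXA genes included, none had a member, 2 had a shared region and 1 a CTD-deletion-only region. FOXA1 had a peak in full-length replicate 1 alone (fold enrichment 3.16). Of 15 genes of hormone-dependent tissues in which FOXA factors act, 1 had a member: XBP1, a factor of the secretory pathway (34246 bp, 3.65 and 5.80).

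Few genes had a member in the lists for the host cell type and its common factors. With 1 of 20 osteoblast and 3 of 20 AP-1 and TEAD genes, neither could be told apart from the 12.9% of all protein-coding genes. Of 20 osteoblast genes, CDH11, for a mesenchymal cadherin, had a member 4456 bp away with values of 5.86 and 9.89, and 4 had a shared region. Of 20 AP-1 and TEAD genes, 3 had one: FOSL2, an AP-1 subunit (21839 bp), YAP1, a TEAD coactivator (46011 bp), and AMOTL2, a target of that pathway (35273 bp). Their fold enrichments were between 2.75 and 3.31 in replicate 1 and between 5.11 and 6.82 in replicate 2. With a flank of 10 kb none of the 20 had one, where 7.31% of all protein-coding genes did. Of 15 neuronal genes, 5 had a member, among them SYT1 (1 member), RBFOX1 (3), CNTNAP2 (1) and DLG2 (4), each inside the gene. The 15 genes had a median length of 309.1 kb, against 24.2 kb for all protein-coding genes. RBFOX1 had 7 shared regions and DLG2 8. Of 15 blood genes, PTPRC, for the leukocyte phosphatase CD45, had 1 member with values of 3.31 and 6.14, and 5 genes had a shared region.

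Which regions were called full-length-only depended on the list thresholds. With each FOXA2-set list limited to its 19862 strongest peaks, 983 regions met the rule (0.411% of those merged). Of the 3127 members, 121 (3.87%) overlapped them. At a common −log10 p of at least 5.43 in the 6 lists, 3437 regions met it (1.34%) and 1137 of the members (36.4%) were among those. With that threshold on the full-length lists only, 1140 regions met the rule (0.344%). All of the 15 highest-ranked members still met it in these 3 settings, which keep strong peaks by construction. Summit windows of 100 bp to either side gave 3345 regions (0.739%), and an IDR limit of 0.05 on the SOX2-set lists gave 3626 (1.16%). When a peak had to cover at least 50% of its region, 3320 regions met the rule (0.832%) and 13 of the 15 were among those. When no other list could have a peak within 500 bp, 2658 did (0.666%) and 11 of the 15 remained. Leaving out 1 list can only add regions, except for changes in merging. Without full-length replicate 1 there were 6561 (1.99%), and without replicate 2 there were 74929 (18.9%). Leaving out CTD deletion replicate 1 gave 4097 (1.07%) and replicate 2 6726 (1.93%). Leaving out wild type replicate 1 gave 3128 (0.784%) and replicate 2 3283 (0.824%). Among these 6 lists of the FOXA2 set, leaving out full-length replicate 2 moved the number most. The SOX2-set lists were left out together only. The CTD deletion has no list of the kind without mitochondrial peaks, so for full-length replicate 2 the construct and the kind of list cannot be told apart.

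**Figure D5:**
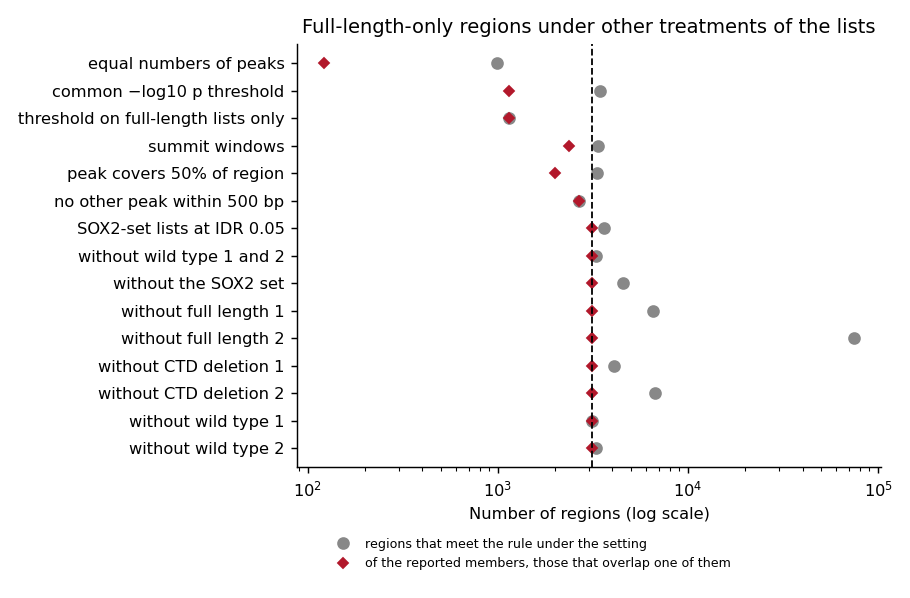
Number of regions on a log axis (horizontal) under other settings of the lists (vertical): grey circles are the regions that met the rule, red diamonds are those of the 3127 reported members that overlapped one of them, and the dashed line is at 3127. With equal numbers of peaks, 983 regions met the rule and 121 reported regions were among those.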

How the data were processed

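ATAC-seq peak lists of U2OS cells were analysed on hg38, the build the submitters' processing notes name. These notes list FastQC 0.10.1, Trim Galore, Bowtie2 2.4.4, SAMtools 0.1.18, MACS2 and deepTools 2.4.1, without parameters. In the deposited lists of the FOXA2 set, fold enrichment is the authors' ratio of a peak over its library's background, and −log10 p is the authors' peak p-value. In the SOX2-set lists, the deposited score restates the global IDR, and the deposited −log10 p and log10 IDR values were made by the authors from pairs of inputs. Fold enrichments and percentiles were read within their own list, and −log10 p also across lists in the settings with a common threshold, although it depends on the depth of each library. Read depth is not given, so shares have Wilson 95% intervals that cover counting error of regions only.

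Peaks were merged at 1 bp on chromosomes 1–22 and X with Python 3.11.15, pandas 2.3.3 and NumPy 2.4.6, by a procedure tested on simulated data. Gene spans and promoter windows came from RefSeq (GRCh38.p14). Starts were known for 15812 of 19974 protein-coding genes, and for none on chromosome 8. Its 208 members were left out of shares by distance to a start. They were kept in the total of 3127 for the share at a promoter window, as were all regions in the other classes. Peak summits were used for distances and summit windows.

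The members, gene lists and settings were chosen with earlier results of these data known. The named members were the 15 with the highest lower percentile of both lists. The named genes were those of the lists with a member within 50 kb, and the 5 with the most members (4 more tied). Some genes of the lists are not reported here. Dense windows were the 3 fullest of 1 Mb, of which the third was 1 of 8 tied at 7 members. Motifs in summit windows were planned, but no genome was used here, so that words were searched in RefSeq promoter windows instead. No tests were made: 2 lists stand against 2, and the rule chose the members. Alternatives were equal numbers of peaks, common thresholds, other overlaps, each FOXA2-set list left out in turn and the SOX2-set lists left out together. A region or member counted as in a gene by its middle. List kinds with and without mitochondrial peaks were run apart, an alternative chosen after seeing the data, as was the count by either gene end.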

Additional observations from a re-analysis of the deposited data

How the results depend on the processing

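The number of full-length-only regions (3127) fell to 983 with equal numbers of peaks and to 1140 with the −log10 p threshold on the full-length lists only. It ranged from 3128 to 74929 when 1 list of the FOXA2 set was left out, by the construction of the rule. Chosen after seeing the data, the lists with mitochondrial peaks alone gave 93280 regions (34.4% of those merged). Those without gave 38392 (61.0%). Each setting had 1 full-length list and 1 wild-type list and left out the SOX2 set. The second had no CTD deletion list, so its regions are full-length against wild type and are not comparable with the 3127. The share within 1 kb of a gene start (0.925%) moved to 2.55% with summit windows, 0.564% with no other peak within 500 bp, 2.13% with the SOX2-set lists at an IDR of at most 0.05, 5.68% without the SOX2-set lists, 5.93% at 5 kb, 1.58% with starts of long noncoding RNA genes added and, chosen after seeing the data, 2.08% by either gene end. It ranged from 0.714% to 1.70% with 1 list left out. The share of promoter windows with a forkhead word (33.3% of 6, beside 12.1% of all promoter windows) moved to 8.33% (3 of 36) with summit windows. It was 5% (2 of 40) at that IDR limit and 7.17% (16 of 223) without the SOX2-set lists. With 1 list left out it ranged from 11.8% (2 of 17) to 50.0% (6 of 12). The cause was not tested. Other settings moved these results by less than 1.5 times or within their intervals.

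No paired analysis was possible because the results are counts of regions and come from no test. Motif windows around summits, other window widths and other centres were not run, since no genome was used here. Read depth is unknown, and the length of a list limits what can be absent from it.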
